A study of Rattus norvegicus with 12 samples.

Results

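Molecular chaperones that a cell uses under normal growth form a connected folding system, and 45 of their genes were followed here in rat H9C2 cells. The genes were chosen by name: HSP90 and its partners, HSP70 relatives outside the stress-inducible set, the mitochondrial chaperonin, small heat shock proteins, J-domain and BAG proteins, the cytosolic chaperonin TRiC and prefoldin. Chaperones of the endoplasmic reticulum were not included. Rows for 42 of the 45 genes were found among 16002 gene IDs, and all 42 were among the 11398 genes tested. St13, Pfdn2 and Vbp1 were not matched by symbol and were not analysed here.

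HSP70 binds short hydrophobic stretches of unfolded chains in a cycle driven by ATP. J-domain proteins deliver clients to HSP70 and switch on its ATPase, while BAG and HSP110 proteins help it release nucleotide and client. HSP90 takes over partly folded clients such as kinases and steroid receptors, and its cochaperones set the pace and the client range of that cycle. Prefoldin and TRiC fold actin and tubulin, and in mitochondria HSPA9, the HSPD1 ring with its HSPE1 lid, and TRAP1 act on imported proteins.

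Total RNA was sequenced after poly(A) enrichment in 3 groups of 4 libraries. H9C2 is an established line from embryonic rat heart with features of skeletal myoblasts. Control cells, labelled wild type, stayed in normal oxygen and were given no virus. The H/R group, also wild type, received an empty lentiviral vector, 8 h of hypoxia at 1% oxygen and 2 h of reoxygenation. The LITAF group, with the genotype label LITAF overexpression, received a lentiviral vector carrying LITAF, a membrane protein of late endosomes and lysosomes, before the same hypoxia and reoxygenation. No group combined normal oxygen with a vector, so for every difference from control the vector and H/R cannot be told apart, nor can a difference in the making of the control values. The labels call the 4 libraries of each group biological replicates and say no more about their origin, and p-values reflect the spread between them.

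Totals were 16.9 to 20.7 M counts per library, with the control group deepest. Litaf stood at 458, 485, 491 and 456 CPM (TMM-scaled counts per M counts) in control, at 549 to 619 CPM in the H/R group and at 2008 to 2691 CPM in the LITAF group, which matches the labels. Fractional values formed 2.79 to 3.34% of the control columns and 11.1 to 12.3% of the others. The muscle identity of the cells was partial: of 11 cardiomyocyte markers, 8 (Myh6, Myh7, Nppa, Tnni3, Actn2, Ryr2, Tbx5 and Mybpc3) stayed under 1 CPM in every library, whereas Tnnt2, Gata4 and Nkx2-5 were detected. Endothelial markers summed to at most 0.612 CPM and leukocyte markers to at most 1.71 CPM. Epithelial markers summed to 28.0 to 40.3 CPM in control, 29.3 to 40.0 CPM in H/R and 39.9 to 76.0 CPM with LITAF. Nearly all of that was Krt8, while Epcam and Cdh1 were at or near 0. The libraries of the LITAF group stood apart from one another, most of all libraries 1 and 2, and results that rest on them are given with and without library 1. Control and H/R libraries of the same number deviated from their group means together.

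Heat shock factor binds inverted repeats of GAA, the element through which stress raises many chaperone genes. This element was searched for in the promoters of the chosen genes. RefSeq promoters (assembly GRCr8, 250 bases before to 50 after the start site, 300 bases) matched 38 of the 42 genes. Hsp90aa1, Dnaja2, Dnajb4 and Bag4 had no matched promoter. A run of 3 units (GAANNTTCNNGAA or TTCNNGAANNTTC, which together cover both strands and both phases) was present in 5 of 38 chaperone promoters (13.2%) and in 267 of 33469 promoters of all genes (0.798%). The 5 genes were Hspe1, Hspd1, Chordc1, Dnaja1 and Cct4, and their elements follow with the units in capitals, 5′ to 3′ on the plus strand. Each is named by gene and position.
Hspe1, chr9:64084217-64084326: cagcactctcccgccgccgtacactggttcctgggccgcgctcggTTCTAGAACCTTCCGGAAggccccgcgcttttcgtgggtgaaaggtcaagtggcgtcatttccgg
Chordc1, chr8:23650828-23650856: ccgGAACGTTCGGGAAGATTCCTGAAgca
Dnaja1, chr5:60638405-60638433: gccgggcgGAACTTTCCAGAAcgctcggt
Cct4, chr14:101193074-101193102: gcgtcgctTTCTGGAAGGTTCgtggaggc

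The Hspe1 and Hspd1 start sites lie 290 bases apart on chromosome 9 and face away from each other. Both windows therefore hold the same element, an 18-base run from 65 to 48 bases before the Hspe1 start and from 242 to 225 bases before the Hspd1 start. In Chordc1 the run covers 23 bases, from 11 to 33 bases after the start, where overlapping matches join. In Dnaja1 and Cct4 the 13-base match lies from 10 to 22 and from 26 to 38 bases after the start. The shorter 2-unit form (GAANNTTC or TTCNNGAA), which every 3-unit run contains, was present in 15 of 38 chaperone promoters (39.5%) and in 15.9% of all promoters. The core of the hypoxia response element (ACGTG or CACGT) was present in 10 of 38 (26.3%) and in 19.3% of all. A match describes letters in this window and does not show binding.

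The first comparison, H/R with empty vector against control, describes how the folding machinery differed after hypoxia, reoxygenation and vector together. Most of the chaperones were higher: 29 of 42 rose, 6 fell and 7 did not pass the test at an adjusted p of 0.05. Over all genes, 31.8% rose and 31.8% fell, and 63.6% were called in either direction, so the large share of calls is general while the direction among the chaperones was mostly upward. The chaperones were chosen with earlier results of these data known, so this comparison with all genes is descriptive only. The median log2 fold change of the chaperones was 0.54, against 0.01 over all genes tested. CPM of the 2 groups did not overlap in 34 of the 42 genes, against 58.6% of all genes. These shares of all genes also stand beside the counts of each role group and list below. The rises covered cytosolic HSP90, most of its cochaperones, both parts of the mitochondrial chaperonin, all 7 chosen TRiC genes and both measured prefoldin genes among the chosen, and 5 of 9 J-domain genes, while the falls were in Hspa14, Hspb7, Hspb6, Fkbp5, Bag4 and Trap1. Within each role group, DESeq2 and an unadjusted edgeR p under 0.05 gave the same counts of higher and lower genes as the adjusted test, the counts of 0 included. In bulk RNA, a change in the number of cells that express a gene and a change in RNA per cell cannot be told apart.

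**Figure D1:**
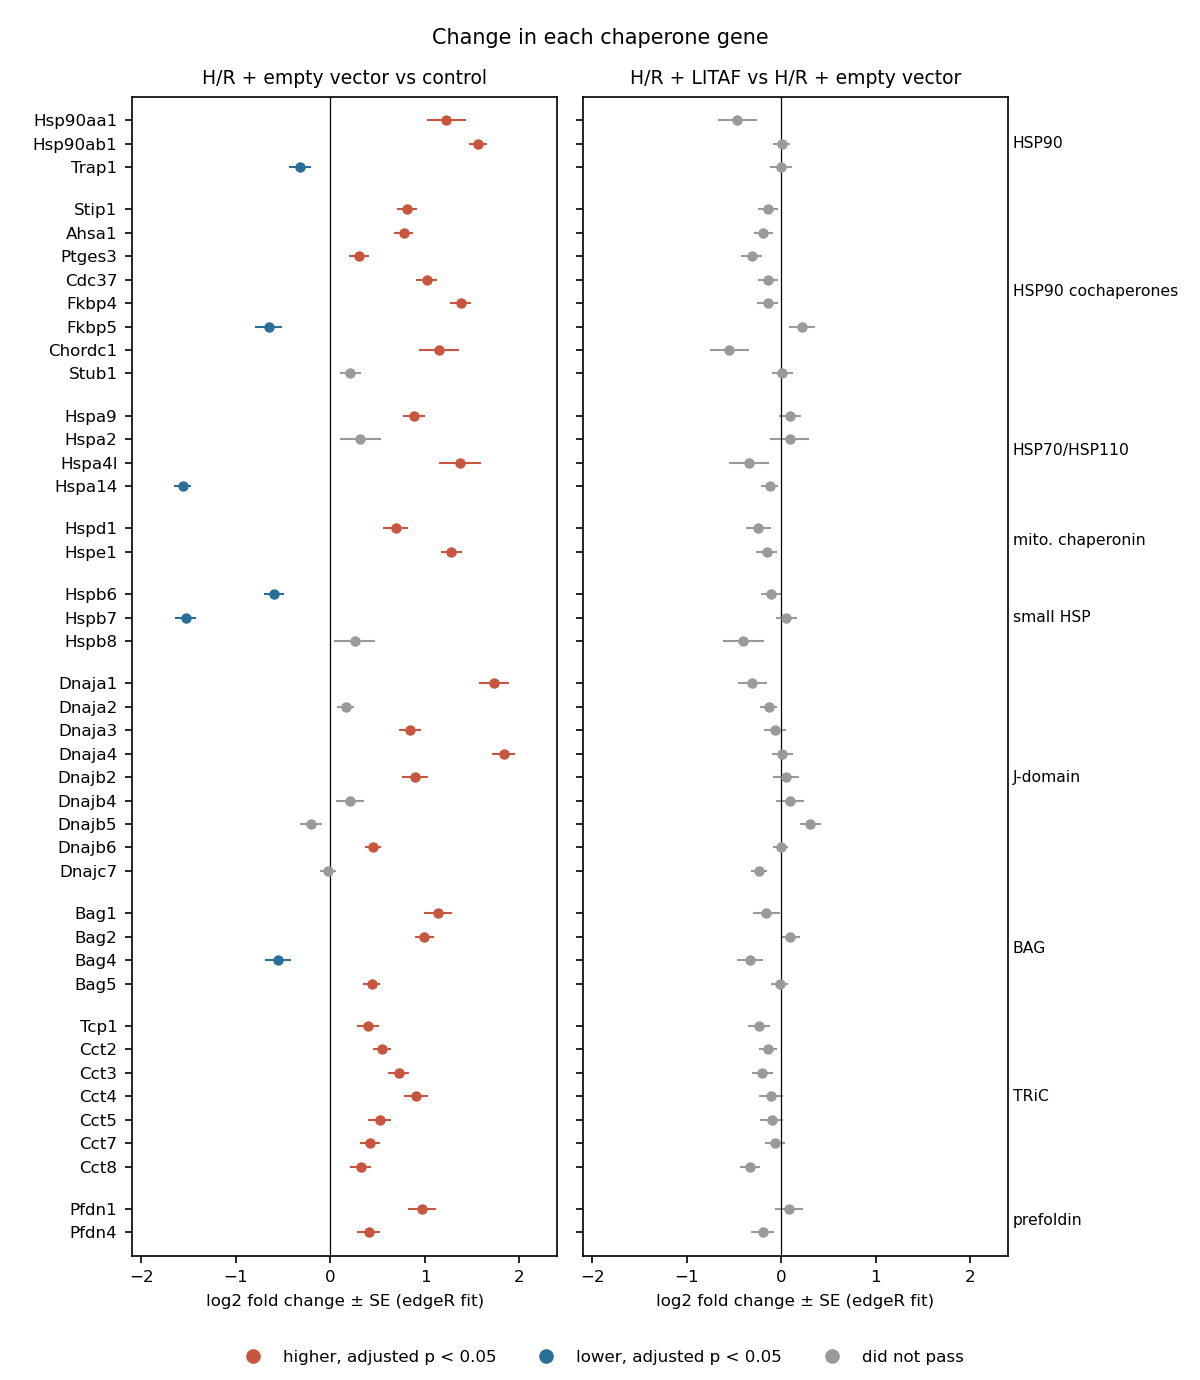
Log2 fold change ± SE from the edgeR fit for the 42 measured chaperone genes, ordered by role, for H/R with empty vector against control (left) and LITAF against H/R with empty vector (right). Red points rose, blue points fell and grey points did not pass. The left panel holds 29 rises and 6 falls, and every point on the right is grey.

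TMM-scaled CPM of the 42 genes summed to 8515 to 9395 in control and to 15166.5 to 15814 after H/R with empty vector. With LITAF the sum was 13509 to 14781 CPM. The 3 ranges did not overlap. Scaling libraries by upper quartiles or by their totals moved the median of all genes in this comparison up by log2 0.12 and 0.13, and the chaperone counts became 31 higher and 5 lower under each. The shares of all genes moved the same way, to 37.8 and 38.6% higher and to 27.3 and 26.8% lower. Relative to the median of all genes, 34 of the 42 chaperones were above it with TMM and with both of these scalings. The 6 fibroblast and mesenchymal markers summed to 54150.8 to 71257.6 CPM in control and to 25813.7 to 28731.5 CPM in the H/R group. Most of that sum was Col1a1 and Col1a2. Of the 5 that were tested 3 fell, Vim rose (3.04-fold) and Thy1 did not pass, and their part in the result was not tested.

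Both cytosolic HSP90 genes rose and the mitochondrial paralog fell. Hsp90ab1 (ENSRNOG00000019834), the form made constitutively in most cells, was measured at 1184, 1396, 1131 and 1242 CPM in control and at 3649.7, 3725, 3654 and 3619 CPM in the H/R group. Every H/R library was above every control library, a 2.96-fold rise (log2 1.56 ± 0.09, edgeR adjusted p = 7.06e-10). Hsp90aa1 (ENSRNOG00000059714), the form that stress raises further in many cells, went from 703, 1002, 784 and 612 CPM to 1875, 1764, 1948 and 1670.0 CPM. This was a 2.34-fold rise with no overlap (log2 1.23 ± 0.21, edgeR adjusted p = 8.71e-05). The ratio of Hsp90aa1 to Hsp90ab1 reads within a library was 0.594, 0.718, 0.693 and 0.492 in control and 0.514, 0.473, 0.533 and 0.462 in the H/R group, and these overlapped (difference of log2 -0.32, exact two-sided permutation p = 0.0857, unpaired). Among libraries of the same number, the H/R value was below the control value in 4 of 4 pairs. The 2 genes are close paralogs with processed pseudogenes, and how the authors' counting shared such reads is not given in the sources used here.

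Trap1, the HSP90 of the mitochondrial matrix, went from 131, 123, 113 and 92.7 CPM to 92.3, 89.9, 89.8 and 96.1 CPM. The lowest control library lay within the H/R range. The fall of log2 -0.32 ± 0.12 (edgeR adjusted p = 0.0236) did not pass with upper-quartile scaling (adjusted p = 0.156) or library totals (adjusted p = 0.142), nor without control library 1 or 2 or H/R library 1, 2 or 3 (adjusted p 0.0524 to 0.0749). The ratio of Trap1 to Hsp90ab1, which needs no scaling between libraries, moved further, mostly through the rise of Hsp90ab1 (log2 1.56). It is therefore no separate support for a fall of Trap1. The ratio was 0.111, 0.0881, 0.100 and 0.0746 in control and 0.0253, 0.0242, 0.0246 and 0.0266 in the H/R group. That is 3.68-fold lower with no overlap (exact two-sided permutation p = 0.0286, the smallest that 4 against 4 libraries allow). Across the 33 ratio tests, 11 pairs of genes in 3 comparisons, the smallest adjusted value that any reached was 0.0673, so none passed after Benjamini-Hochberg adjustment.

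Among 8 measured HSP90 cochaperones and adaptors, 6 rose, 1 fell and 1 did not pass. The 2 large immunophilins, which compete for the same site on HSP90 in steroid receptor complexes, went opposite ways. Fkbp4, which favours transport of the receptor to the nucleus, went from 111, 108, 112 and 145 CPM to 293, 306, 304 and 334 CPM, 2.60-fold higher (log2 1.38 ± 0.11, edgeR adjusted p = 1.8e-08). Fkbp5, which holds the receptor in a state of low hormone affinity, went from 96.2, 61.4, 89.2 and 106 CPM to 56.2, 54.0, 53.4 and 61.3 CPM, 1.57-fold lower (log2 -0.65 ± 0.14, edgeR adjusted p = 0.00082). Control library 2 was only just above the highest H/R library for Fkbp5. The ratio of Fkbp4 to Fkbp5 reads rose in every H/R library, from 1.15 to 1.75 in control to 5.203 to 5.68, a 4.03-fold difference (exact two-sided permutation p = 0.0286, adjusted 0.0673).

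Cdc37, the adaptor that brings kinases to HSP90, went from 119, 128, 124 and 155 CPM to 258, 270.4, 255 and 281 CPM (log2 1.02 ± 0.11). Stip1, which bridges HSP70 and HSP90, rose by log2 0.81 ± 0.11 and Ahsa1, an activator of the HSP90 ATPase, went from 123, 131, 158 and 122 CPM to 227, 225, 233 and 229 CPM (log2 0.78 ± 0.10). Chordc1, an HSP90-binding protein with zinc-binding CHORD domains and one of the genes whose promoter carried the 3-unit element, went from 83.1, 59.4, 60.0 and 53.8 CPM to 153, 137, 152 and 126 CPM. All 4 H/R libraries lay above control, and the rise was 2.22-fold (log2 1.15 ± 0.21, edgeR adjusted p = 0.000196).

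Ptges3, or p23, which slows ATP hydrolysis by HSP90 and holds its closed state, was at 413, 419, 403 and 431 CPM in control and at 524, 514, 532 and 484 CPM in the H/R group. This rise of log2 0.30 ± 0.11 was small and did not pass without H/R library 3 (edgeR adjusted p = 0.0216 and 0.0534 without that library). The ratio of Ahsa1 to Ptges3 reads was 0.282 to 0.391 in control and 0.433 to 0.474 in the H/R group, without overlap, but did not pass after adjustment (exact two-sided permutation p = 0.0286, adjusted 0.0673). Stub1, the ubiquitin ligase CHIP that marks clients of HSP70 and HSP90 for degradation, was at 65.3, 80.4, 87.7 and 90.4 CPM in control and at 92.4, 98.6, 87.7 and 95.6 CPM in the H/R group and did not pass (log2 0.21 ± 0.11). It passed with upper-quartile scaling (log2 0.32) and with library totals (log2 0.33).

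In the HSP70 and HSP110 family the genes differed in direction. Hspa9, or mortalin, the HSP70 of the mitochondrial import motor, went from 448, 476, 469 and 391 CPM to 811, 826, 870.3 and 783 CPM (log2 0.88 ± 0.11, edgeR adjusted p = 4.72e-06). Hspa4l, an HSP110-type nucleotide exchange factor, went from 8.51, 9.67, 10.5 and 11.8 CPM to 23.6, 24.5, 29.1 and 27.2 CPM, 2.58-fold higher with no overlap (log2 1.37 ± 0.22). Hspa14, an HSP70 relative that forms part of a ribosome-associated complex with the J-domain protein DNAJC2, went the other way, from 126, 152, 136 and 147 CPM to 48.1, 47.2, 46.2 and 48.3 CPM. It had the largest fall of the 42 genes, 2.96-fold (log2 -1.56 ± 0.09, edgeR adjusted p = 4.55e-10). Hspa2, known mainly from the testis, was low throughout, at 2.21 to 2.78 CPM in control and 2.69 to 3.46 CPM in the H/R group, and did not pass.

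**Figure D2:**
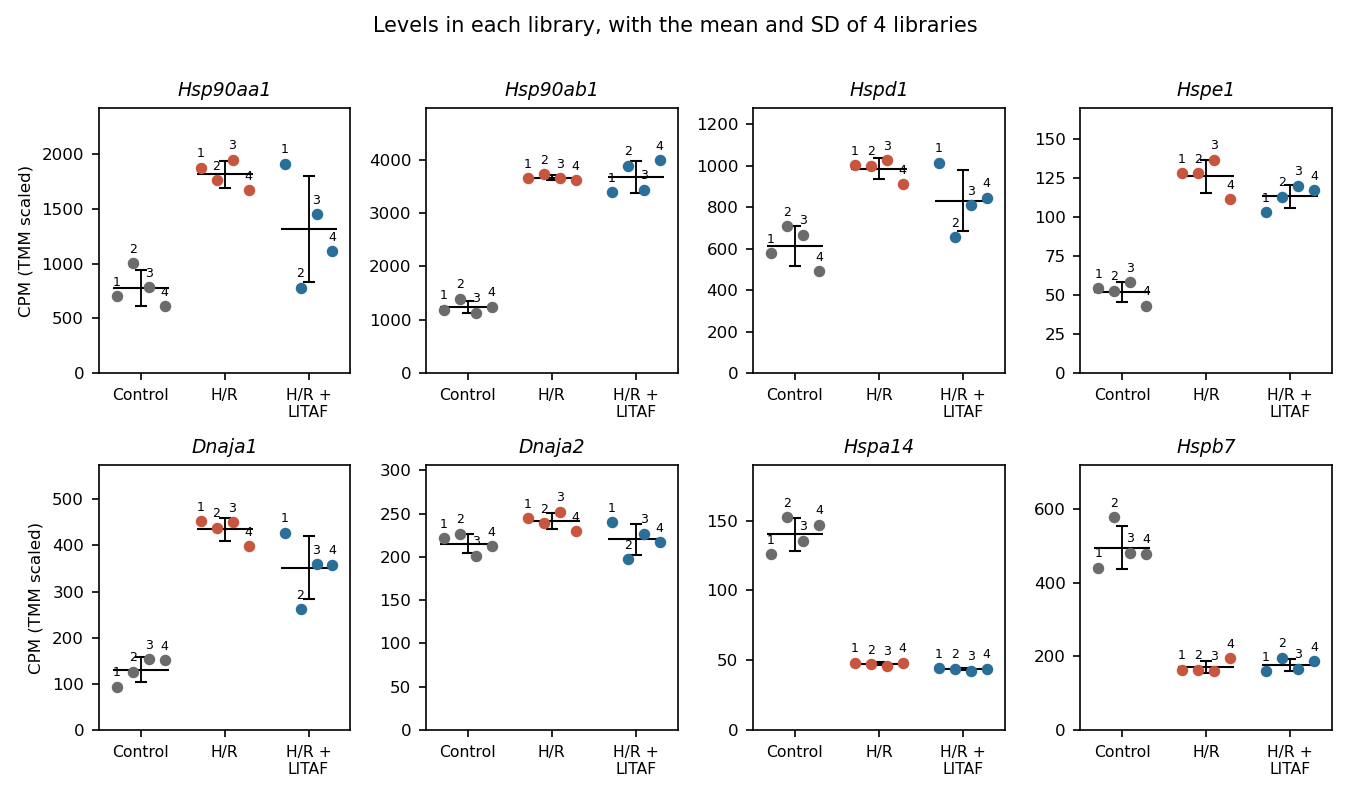
CPM of 8 chaperone genes in each library, numbered 1 to 4 within control (grey), H/R with empty vector (red) and LITAF (blue), with a horizontal line at the mean and bars of 1 SD over 4 libraries. Each axis starts at 0. In Hsp90ab1, Hspe1, Hspa14 and Hspb7 the control libraries lie apart from both other groups, whereas for Hsp90aa1 the LITAF libraries run from 779 to 1912 CPM.

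The mitochondrial chaperonin rose in both of its parts. Hspe1, the lid, went from 54.2, 52.8, 58.0 and 43.1 CPM to 128, 128, 137 and 112 CPM, a 2.43-fold rise (log2 1.28 ± 0.11, edgeR adjusted p = 4.29e-08). Hspd1, the ring, went from 579.6, 708, 667 and 491 CPM to 1004, 1001, 1029 and 912 CPM, a 1.61-fold rise (log2 0.69 ± 0.13, edgeR adjusted p = 0.000262). Neither gene overlapped between the groups. The 2 genes share the promoter region shown above. The ratio of Hspd1 to Hspe1 reads was 10.7, 13.4, 11.5 and 11.4 in control and 7.83, 7.80, 7.52 and 8.17 in the H/R group. This was 1.49-fold lower in H/R with no overlap (exact two-sided permutation p = 0.0286, adjusted 0.0673). The ratio compares read numbers and not molecules, since the transcripts differ in length, and both genes have processed pseudogenes.

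Other genes of mitochondrial folding and proteolysis moved mostly the same way. Of 18 such genes 12 rose and none fell, with a median of log2 0.42. The smallest p-values belonged to the matrix protease Lonp1 (log2 2.24 ± 0.16), the import motor subunit Pam16 (log2 1.60 ± 0.13) and Atf5, a transcription factor of the mitochondrial unfolded protein response (log2 1.48 ± 0.16). Trap1 was the 1 mitochondrial member among the 42 that fell, and Dnaja3, the mitochondrial J-domain protein, rose by log2 0.85 ± 0.12.

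No small heat shock protein among the members rose. Hspb7, expressed in heart and skeletal muscle, went from 441, 577, 481 and 479 CPM to 164, 164, 161 and 194 CPM, 2.90-fold lower (log2 -1.53 ± 0.11, edgeR adjusted p = 5.61e-09). Hspb6, another muscle small heat shock protein, went from 121, 111, 84.6 and 96.2 CPM to 67.6, 69.5, 69.3 and 66.9 CPM (log2 -0.60 ± 0.11). All H/R libraries were below all control libraries for both genes. Hspb8, the partner of BAG3 in selective autophagy, did not pass, with control libraries at 7.29, 3.39, 9.01 and 7.60 CPM and H/R libraries at 7.87 to 8.64 CPM. Summed muscle markers were also lower in H/R, though not every gene of the lists was. The 8 skeletal myoblast markers summed to 1638 to 5938 CPM in control and 125 to 146 CPM in the H/R group, with Myog at 1257 to 5730.4 and at 4.99 to 19.6 CPM and Myf5 at or near 0 throughout. Of the 5 that were tested, Myog and Myod1 fell, Des rose (log2 1.81) and Acta1 and Chrna1 did not pass. The 11 cardiomyocyte markers summed to 209 to 447 and to 80.7 to 111 CPM. Of the 3 that were tested, Tnnt2 and Gata4 fell and Nkx2-5 rose (2.41-fold), and the part of either list in the falls was not tested.

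J-domain genes rose in 5 of 9 cases and fell in none. The largest rise of the 42 genes was in Dnaja4, a class A J-domain protein of the cytosol, from 15.4, 22.3, 19.7 and 21.2 CPM to 69.8, 72.7, 66.8 and 70.9 CPM, 3.56-fold (log2 1.83 ± 0.12, edgeR adjusted p = 1.65e-09). Dnaja1, its close relative and another carrier of the 3-unit element, went from 93.5, 126, 153 and 151 CPM to 452, 438, 449.8 and 398 CPM, 3.32-fold (log2 1.73 ± 0.16, edgeR adjusted p = 1.01e-07). In both genes every H/R library was far above the highest control library. Dnaja2, the third cytosolic class A protein, stood at 221, 227, 202 and 212 CPM in control and at 245, 239, 252 and 230.0 CPM in the H/R group. Its groups did not overlap, but the difference of log2 0.16 ± 0.09 did not pass (edgeR adjusted p = 0.121). With upper-quartile scaling or library totals it passed, at log2 0.28 and 0.29. The ratio of Dnaja1 to Dnaja2 reads was 0.423, 0.556, 0.760 and 0.713 in control and 1.85, 1.83, 1.78 and 1.73 in the H/R group, 3.01-fold higher (exact two-sided permutation p = 0.0286, adjusted 0.0673).

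Dnajb2, which carries ubiquitin-interacting motifs, rose by log2 0.89 ± 0.14, and Dnajb6, a suppressor of polyglutamine aggregation, by log2 0.45 ± 0.08. Dnajb4, Dnajb5 and Dnajc7 did not pass, at log2 0.21 ± 0.15, -0.21 ± 0.11 and -0.02 ± 0.08. Dnajb4 passed without control library 3 (log2 0.36), and Dnajb5 passed as lower without control library 1 (log2 -0.31). Among 16 other J-domain genes 5 rose and 4 fell, with a median of log2 0.03. The smallest p-values belonged to Dnajc9, a histone chaperone (log2 -1.10 ± 0.11), Dnajc18 (log2 0.87 ± 0.14) and Dnajc27 (log2 -0.63 ± 0.11).

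BAG proteins bind the ATPase domain of HSP70 through a shared domain. Bag1, which links HSP70 to the proteasome, went from 20.9, 29.6, 21.1 and 18.7 CPM to 48.1, 53.3, 49.96 and 47.4 CPM (log2 1.14 ± 0.15, edgeR adjusted p = 4.22e-06). Bag2, an inhibitor of the ligase CHIP, went from 45.8, 57.6, 48.9 and 46.3 CPM to 96.6, 101, 99.1 and 98.7 CPM (log2 0.99 ± 0.10), and Bag5 rose by log2 0.44 ± 0.09. Bag4, which also restrains signalling from TNF receptors, went from 14.7, 18.6, 17.5 and 18.1 CPM to 11.1, 11.7, 11.8 and 12.2 CPM, 1.47-fold lower (log2 -0.56 ± 0.14, edgeR adjusted p = 0.00193). None of the 4 overlapped between the groups, and 58.6% of all genes did not overlap either. The ratio of Bag2 to Stub1 reads went from 0.702, 0.717, 0.557 and 0.512 in control to 1.05, 1.02, 1.13 and 1.03 in the H/R group, 1.72-fold higher (exact two-sided permutation p = 0.0286, adjusted 0.0673).

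All 7 chosen subunits of TRiC rose, by log2 0.32 to 0.91, against 31.8% of all genes that rose. None of the 7 overlapped between the groups, and 58.6% of all genes did not overlap either. TRiC is built of stacked rings of different subunits and encloses folding actin, tubulin and other proteins. Cct4 rose most, from 292, 299.7, 265 and 437 CPM to 603, 616, 597 and 614 CPM (log2 0.91 ± 0.13, edgeR adjusted p = 1.09e-05), and it is the TRiC gene whose promoter carried the 3-unit element. Cct3 followed at log2 0.72 ± 0.11, then Cct2 at 0.55 ± 0.09, Cct5 at 0.52 ± 0.12, Cct7 at 0.42 ± 0.11, Tcp1 at 0.40 ± 0.12 and Cct8 at 0.32 ± 0.11. Differences between neighbours in this order were not tested, and each was smaller than the sum of the standard errors. Cct8 went from 318, 414, 414 and 428 CPM to 492, 486, 519 and 467 CPM, and without control library 1 its rise did not pass (edgeR adjusted p = 0.0173 and 0.0517 without that library). Cct6a, the remaining subunit, which was not among the genes chosen, stood at 661, 565, 676 and 534 CPM in control and at 611, 614, 598 and 603 CPM in the H/R group and did not pass (log2 -0.01 ± 0.09).

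Prefoldin hands new chains to TRiC. Pfdn1 went from 55.2, 42.6, 80.7 and 59.0 CPM to 121, 119, 116 and 109 CPM (log2 0.97 ± 0.15, edgeR adjusted p = 3.61e-05). Pfdn4 rose by log2 0.40 ± 0.12 with overlapping groups. Of 10 other chaperonin and prefoldin genes 5 rose and 1 fell, with the prefoldin subunits Pfdn6 (log2 1.29 ± 0.16) and Pfdn5 (log2 1.10 ± 0.17) and the prefoldin-like Pdrg1 (log2 0.91 ± 0.11) having the smallest p-values.

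A list of 13 heat shock factors and genes outside the chosen set, not all of them inducible, was read beside these rises. Hspa1a, also planned for this list, was not found among the gene IDs used and was not analysed. Of the 13, 9 rose and none fell, with a median of log2 1.65 against 0.54 for the 42 chaperones. That median was the value of Hspa8. Hspa1b, the main inducible HSP70, rose 128-fold (SE 0.18 on the log2 scale), its close paralog Hspa1l by log2 4.42 ± 0.20 and the small heat shock protein gene Hspb1 by log2 3.11 ± 0.14. Of 18 other HSP90 cochaperones 8 rose and 1 fell, led by the HSP90 activator homologue Ahsa2 (log2 2.07 ± 0.10), the R2TP subunit Ruvbl2 (log2 1.17 ± 0.11) and Sugt1 (log2 0.93 ± 0.11).

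All 5 genes with the 3-unit element rose, by log2 0.69 to 1.73 with a median of 1.15. Of the 33 chaperone genes whose promoter did not hold it, 23 rose and 5 fell, with a median of log2 0.45 and a range from -1.56 to 1.83. The ranges overlap, and Dnaja4, the largest rise, had no such match in its window. Because Hspe1 and Hspd1 share 1 element, the 5 genes represent 4 separate sequences.

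**Figure D3:**
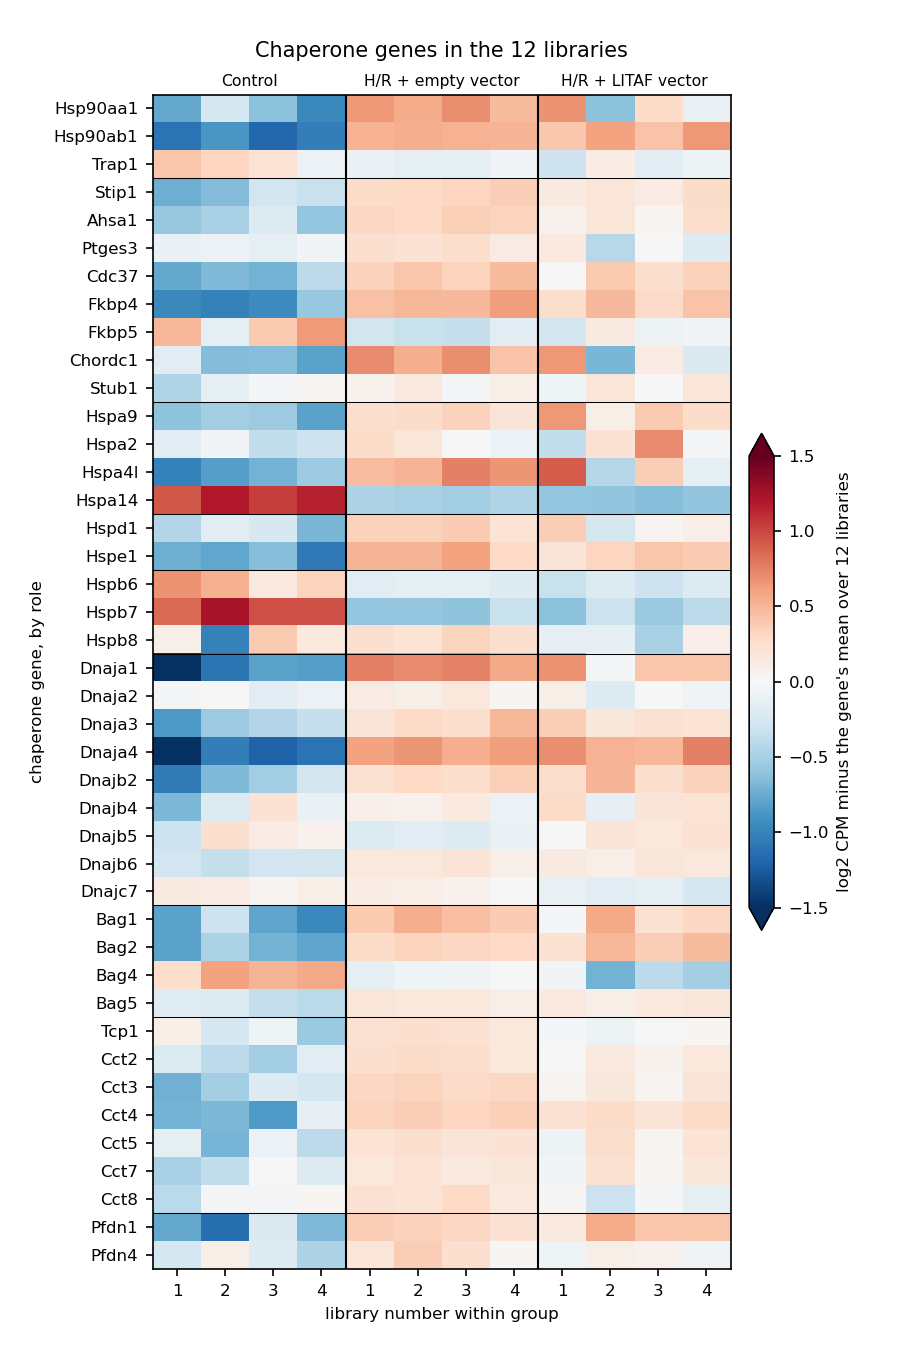
Log2 CPM of the 42 chaperone genes in the 12 libraries, each gene shown as its difference from its own mean over all libraries and ordered by role, with red above and blue below that mean. The 4 control columns differ from the 8 others for most genes, Hspa14 and Hspb7 show the reverse colours, and within the LITAF group libraries 1 and 2 differ for Hsp90aa1, Chordc1 and Hspa4l.

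The second comparison, LITAF against empty vector with both groups after H/R, asks whether LITAF overexpression changed the chaperones. None of the 42 genes passed edgeR's test, against 3.73% of all genes that rose and 1.15% that fell (425 and 131 genes, 4.88% in all, or 320 and 205 with scaling by library totals). At an unadjusted p under 0.05 there were 7 genes, 6 lower and 1 higher, and 20.03% of all genes. DESeq2 called none higher and 2 lower, Cct8 and Dnajc7, and 7.91% of all genes in either direction. A fit of these 2 groups alone called Dnajb5 higher and Cct8, Dnajc7 and Tcp1 lower. That fit called 9.78% of all genes, 6.91% higher and 2.87% lower. The median over the 42 genes was log2 -0.13, against -0.01 over all genes, and 10 genes had CPM without overlap between the groups, against 18.9% of all genes.

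Cct8 had the smallest p, at 492, 486, 519 and 467 CPM in the H/R group and at 426, 336, 417 and 383 CPM in the LITAF group. All LITAF libraries were lower (log2 -0.33 ± 0.11, edgeR adjusted p = 0.0933). Ptges3 went from 524, 514, 532 and 484 CPM to 491, 334, 441 and 389 CPM, with library 1 inside the H/R range (log2 -0.31 ± 0.11, edgeR adjusted p = 0.107). Dnajc7, a cochaperone with tetratricopeptide repeats that binds both HSP70 and HSP90, was at 112, 111, 109 and 104 CPM and at 96.2, 92.6, 94.0 and 87.3 CPM, again with all LITAF libraries lower (log2 -0.24 ± 0.08, edgeR adjusted p = 0.115). Dnajb5 was the 1 member with an unadjusted p under 0.05 and a higher value, at 88.2, 91.0, 89.0 and 95.3 CPM and at 101, 116, 114 and 119 CPM (log2 0.31 ± 0.11, edgeR adjusted p = 0.13).

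The 7 chosen TRiC genes gave log2 -0.33 to -0.07, and 4 of the 7 did not overlap between the groups (Tcp1, Cct3, Cct4 and Cct8; 18.9% of all genes), but none passed. Cct6a, outside the chosen set, was at 507, 464, 499 and 475 CPM in the LITAF group, below every H/R library, and did not pass either (log2 -0.32 ± 0.09, edgeR adjusted p = 0.0588). Hsp90ab1 was at 3386, 3885, 3438 and 3991 CPM in the LITAF group, on both sides of the H/R range of 3619 to 3725 CPM (log2 0.01 ± 0.09). Hspe1 was at 103, 113, 120.2 and 117 CPM and Dnaja4 at 74.5, 65.9, 64.6 and 77.6 CPM, both overlapping H/R. The genes that had fallen in H/R were also still low: Hspa14 at 44.1, 43.8, 42.6 and 43.9 CPM and Hspb7 at 160.1, 196, 167 and 186 CPM. Skeletal myoblast markers summed to 164 to 199 CPM in the LITAF group, above the 125 to 146 CPM of the H/R group. Cardiomyocyte markers summed to 164 to 222 CPM, above the 80.7 to 111 CPM of H/R and overlapping the control range of 209 to 447 CPM. Of the markers tested, Acta1 (log2 1.16), Chrna1 (log2 2.12, under 1 CPM) and Tnnt2 (log2 1.32) were called higher with LITAF. The other 3 skeletal and 2 cardiomyocyte markers tested did not pass.

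Outside the chosen genes, 1 of the 13 heat shock factors and genes rose, the J-domain gene Dnajb1, from 207 to 219.8 CPM in the H/R group to 380.2 to 423 CPM (log2 0.92 ± 0.10, edgeR adjusted p = 5.56e-05). Ahsa2 fell by log2 0.38 (edgeR adjusted p = 0.0375), and Dnajc2, the partner of HSPA14 at the ribosome, fell by log2 0.52 (edgeR adjusted p = 0.0354). No gene of the other mitochondrial list or of the other chaperonin and prefoldin list passed edgeR's test. At an unadjusted p under 0.05 they had 1 and 2 lower genes, and DESeq2 called 0 and 2.

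The LITAF libraries disagreed for a few chaperones by more than they differed from H/R as a group. Hsp90aa1 was at 1912, 779, 1453 and 1110.5 CPM in LITAF libraries 1 to 4, Chordc1 at 147, 58.4, 102 and 80.6 CPM and Hspa4l at 32.2, 12.7, 22.1 and 15.5 CPM. Library 1 was above the H/R mean in these 3 genes, library 2 was lowest, and the ratio between them was 2.46, 2.52 and 2.53. Library 2 stood close to the control mean of 775 CPM for Hsp90aa1 and of 64.1 CPM for Chordc1. Dnaja1 (427, 262, 359 and 358 CPM, 1.63-fold) and Hspd1 (1015, 657, 811 and 846 CPM, 1.55-fold) had the same order of libraries 1 and 2.

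**Figure D4:**
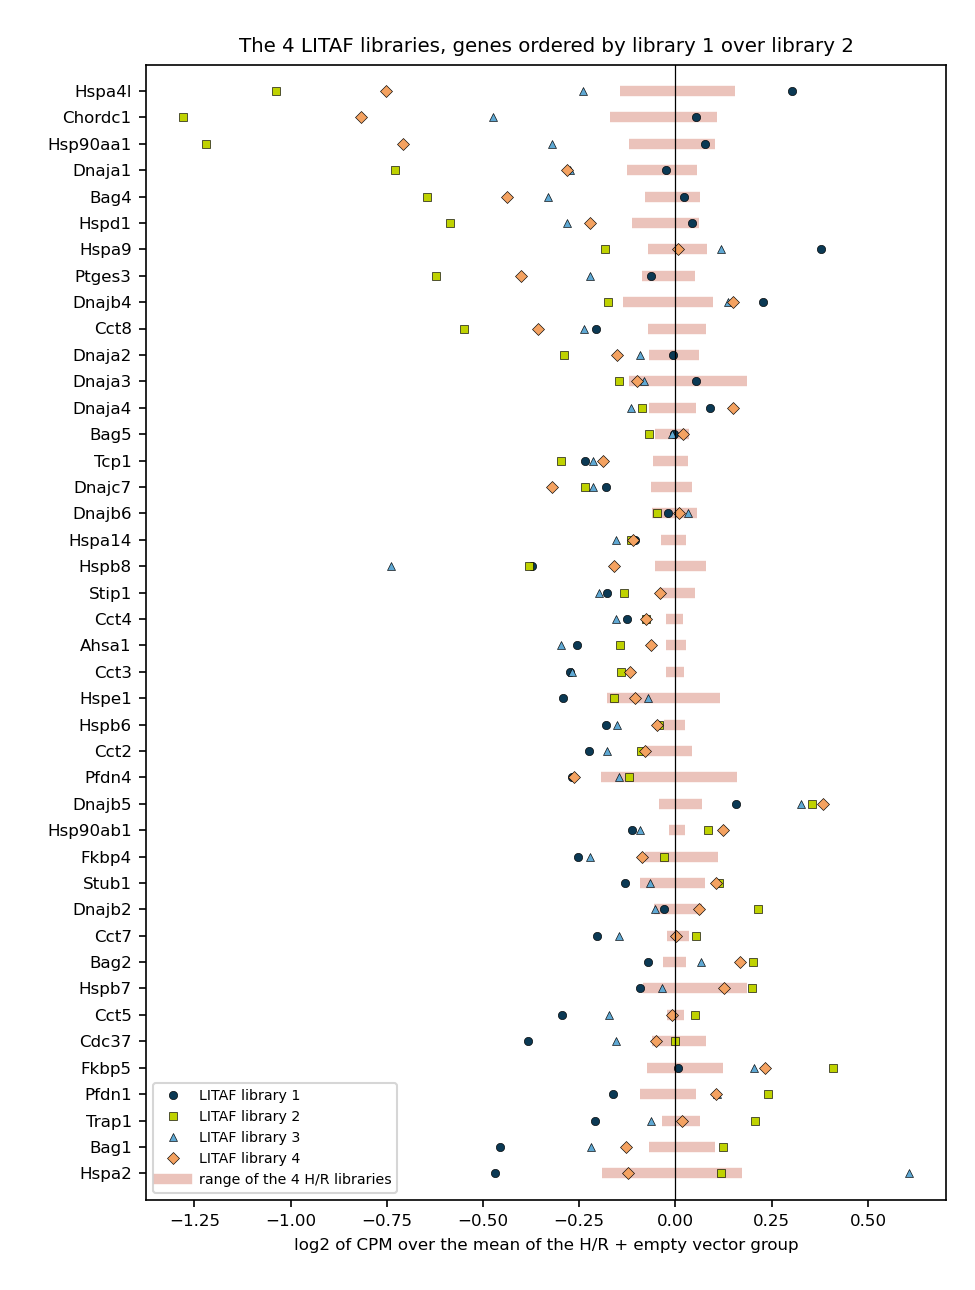
Log2 of CPM in each LITAF library over the mean of the H/R group for the 42 chaperone genes, sorted by the ratio of library 1 to library 2, with the range of the 4 H/R libraries as a pale bar. At the top, libraries 1 and 2 differ by 2.53-fold, 2.52-fold and 2.46-fold for Hspa4l, Chordc1 and Hsp90aa1, and towards the bottom the order of libraries 1 and 2 is reversed, as for Bag1 at 1.49-fold.

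Libraries 1 and 2 were often the extremes across all genes, but which of them was higher varied by gene. Library 1 was highest and library 2 lowest in 12 of the 42 genes (28.6%, against 27.8% of all genes), and the reverse held in 13 (31.0%, against 26.0%). Bag1 was at 36.2, 54.1, 42.7 and 45.4 CPM, highest in library 2. Without LITAF library 1, edgeR called 5 chaperones lower, namely Chordc1 (log2 -0.81), Hsp90aa1 (-0.69), Hspa4l (-0.62), Bag4 (-0.45) and Ptges3 (-0.39), and Dnajb5 higher (0.38, adjusted p = 0.0499). At that setting 11.2% of all genes were called, 6.01% higher and 5.15% lower. Without any other single library of the 2 groups it called none. Library 1 had the most Litaf CPM of the group, 2691, and library 2 the fewest, 2008, and the part of this in the spread was not tested.

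The spread between libraries differed between the groups for the chaperones as for other genes. The median coefficient of variation over the 42 genes was 14.8% in control, 4.05% in the H/R group and 8.58% in the LITAF group, and over all genes 16.1, 7.45 and 12.2%. It was highest for Hspb8 in control (35.3%), Hspa2 in the H/R group (11.3%) and Hspa4l in the LITAF group (42.0%). In every pair of libraries of 1 group the counts differed by more than sampling noise, with a mean chi-square per gene of at least 3.49.

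The Fkbp4 to Fkbp5 ratio was the 1 ratio of the 11 that did not overlap between LITAF and H/R. It was 4.59, 4.05, 4.09 and 4.41 in the LITAF group and 5.203, 5.67, 5.68 and 5.45 in the H/R group, 1.28-fold lower (exact two-sided permutation p = 0.0286, adjusted 0.0673). Fkbp4 itself was at 259, 303, 265 and 291 CPM and Fkbp5 at 56.5, 74.6, 64.8 and 66.1 CPM in the LITAF group, and neither passed alone.

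The third comparison, LITAF after H/R against control, shares its samples with the other two and is given for the members side by side. Here 25 of the 42 genes rose and 7 fell (32% and 32.6% of all genes), with a median of log2 0.43. Their CPM did not overlap in 26 genes, against 52.1% of all genes. Ptges3, Tcp1, Cct8 and Pfdn4, which had risen in H/R with empty vector, did not pass here, at log2 -0.01, 0.16, -0.01 and 0.21. Dnajc7 was added to the falls at log2 -0.26 ± 0.08 (edgeR adjusted p = 0.012), a call that did not hold with upper-quartile scaling (log2 -0.16, adjusted p = 0.129), library totals (adjusted p = 0.0653), no filter (0.0538) or the fit of 2 groups (0.0806). Pfdn4 passed as higher with upper-quartile scaling (log2 0.31), with library totals (log2 0.29) and without control library 2 (log2 0.32), and Tcp1 without control library 1 (log2 0.26). The others kept a call in the same direction, among them Hsp90ab1 at log2 1.57, Dnaja4 at 1.85, Hspe1 at 1.12 and Hspa14 at -1.69. A loss of a call between the 2 comparisons is not a test of the difference, which is the LITAF against H/R comparison above, where none of these genes passed. Calls that were lost when 1 library was left out were those of Chordc1 (control 2 or 4, or LITAF 1), Fkbp5 (control 4 or LITAF 1), Dnajc7 (LITAF 4) and Trap1 (control 1 or 2, or LITAF 1 or 3), with adjusted p of 0.0513 to 0.0977. Trap1 was also lost with upper-quartile scaling (edgeR adjusted p = 0.129), library totals (0.0644), no filter (0.0506) and the fit of 2 groups (0.0819). Fkbp5 was lost with upper-quartile scaling (0.0600). Dnajb4 and Stub1 passed as higher with upper-quartile scaling, library totals and some single libraries left out. Hspa2 passed as higher with upper-quartile scaling or without LITAF library 1, and Hspb8 as lower without control library 2.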

How the data were processed

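Poly(A)-enriched RNA of H9C2 cells was sequenced in 12 libraries, 4 each of control, H/R with empty vector and H/R with LITAF vector. Per the file headers, the authors deposited raw read counts per gene with Ensembl IDs, treated here as estimated counts because some were not whole, and rounded. DESeq2 and edgeR are named in the submitters' processing notes without versions or roles. The aligner, quantifier, genome build, annotation and strand setting were not given in the sources used here, so reads shared with paralogs, pseudogenes or overlapping genes are uncertain.

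The table had 16204 rows. Of these, 258 shared an ID with another row (128 IDs): 56 IDs with identical rows were kept once, and 72 with differing rows were left out, none of them a chosen chaperone. After filterByExpr by group, 11398 genes were scaled by TMM and fitted over all 12 libraries with a mean per group by edgeR's quasi-likelihood test (robust, two-sided, Benjamini-Hochberg over all genes, threshold 0.05; edgeR 4.0.16, limma 3.58.1, R 4.3.3). DESeq2 1.42.0 was an alternative. Levels are CPM, and errors of fold changes are SE. Depth of 16.9 to 20.7 M counts leaves counting error small except for genes of a few CPM.

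Ratios of 2 genes within a library used counts plus 0.5 and an exact two-sided permutation test of 4 against 4 libraries, adjusted over 33 tests. A planned 12th pair, with St13, was not run. Deviations from the group means across genes correlated at 0.30 to 0.57 between control and H/R libraries that share a number (0.05 to 0.20 for H/R and LITAF, 0.05 to 0.10 for LITAF and control), so numbers were taken to pair control with H/R from the data, not from the labels. Promoters came from RefSeq (GRCr8).

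The genes and lists were chosen with earlier results of these data known. Values in every library are given for the 3 genes with the smallest p for LITAF against H/R, for the largest called rise and fall of each role group in H/R against control, and for both genes of a ratio discussed; a few more were added after their values were seen (Cdc37, Chordc1, Hspa9, Hspb6, Hspb8, Dnajb5 and Cct6a). Of the other lists, up to 3 genes with the smallest p are named, or up to 2 for LITAF against H/R. Hspa8 is named as the median of its list. Alternatives were other scalings, no low-count filter, repeated IDs kept, a fit of 2 groups, a replicate block, DESeq2, a threshold of 0.01 and leaving out each library.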

Additional observations from a re-analysis of the deposited data

Results flagged for a closer look

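In 126 groups of 4 libraries, 42 genes in 3 groups each, the highest or lowest library was compared with the others by Dixon's test, and 4 stood apart from the rest of their group. Chance alone gives about 1 in 20. Fkbp4 was at 145 CPM in control library 4 and at 108 to 112 CPM in the other control libraries. Hspb7 was at 194 CPM in H/R library 4 and at 161 to 164 CPM in the others. Dnajb6 was at 56.0 CPM in control library 2 and at 58.8 to 59.4 CPM in the others. Cct8 was at 318 CPM in control library 1 and at 414 to 428 CPM in the others, and its rise in H/R against control did not pass without that library.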

How the results depend on the processing

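Against control, the chaperone calls of H/R stayed at 28 to 31 higher and 5 to 6 lower under every alternative run, and at 27 and 5 with a threshold of 0.01. The replicate block gave 29 and 6, the same calls, so pairing control with H/R libraries changed no chaperone call there. For LITAF against control, upper-quartile scaling and the 0.01 threshold each left 4 lower calls in place of 7.

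LITAF against H/R depended more on the setting. Chaperone calls were 1 lower with the replicate block (Chordc1, log2 -0.61, edgeR adjusted p = 0.0242), 2 lower with DESeq2 and 1 higher and 3 lower in the fit of 2 groups. In that order, 7.66, 7.91 and 9.78% of all genes were called. Leaving out single libraries gave 0 to 1 higher and 0 to 5 lower. These libraries share only a number, and not every LITAF library correlated best with the H/R library of its own number. Over all genes, higher calls numbered 776 in the fit of 2 groups, 163 at the 0.01 threshold and 205 to 692 with a library left out. Lower calls numbered 205 with library totals, 299 with the replicate block, 322 in the fit of 2 groups, 275 with DESeq2, 19 at the 0.01 threshold and 32 to 593 with a library left out.

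Of 1890 gene-level alternatives, 1778 kept direction and call, 34 gained and 28 lost a call, and 50 changed sign, all in genes that were not called and lay near 0. The ranges below are log2 fold changes with a library left out. For H/R against control, Dnajc7 was 0.094 with upper-quartile scaling, 0.10 with library totals and -0.039 to 0.0016 in the range. For LITAF against H/R, upper-quartile scaling and library totals gave -0.0020 and -0.035 for Dnaja4 (range -0.035 to 0.054), -0.0065 and -0.044 for Hsp90ab1 (range -0.037 to 0.064) and -0.0018 and -0.040 for Stub1 (range -0.035 to 0.075). Without the filter and with DESeq2, Dnajb6 was 0.0022 and 0.0025 (range -0.019 to 0.018) and Trap1 0.0071 and 0.0049 (range -0.090 to 0.079). Ranges alone crossed 0 for Bag5 (-0.027 to 0.0011), Dnaja3 (-0.11 to 0.012), Dnajb2 (-0.015 to 0.0997), Hspa2 (-0.14 to 0.25) and Hspb7 (-0.0057 to 0.14). For LITAF against control, upper-quartile scaling, library totals, no filter and the fit of 2 groups gave 0.087, 0.068, 0.0075 and 0.0014 for Cct8 (range -0.10 to 0.046) and 0.086, 0.070, 0.0064 and 0.00056 for Ptges3 (range -0.081 to 0.071). Dnajb5 ranged from -0.00090 to 0.18 and Hspb8 from -0.36 to 0.031. In all 297 alternatives of the ratios the difference of log2 stayed within the larger SD of the 2 groups from its main value. Direction was checked only where the exact permutation p was under 0.05. The groups did not overlap there, so leaving out a library could not reverse it. These checks therefore do not show how stable the ratios are. The p-values of the ratios were not recomputed. The cause of these changes was not tested. Genes at a few CPM, such as Hspa2 and Hspb8, are limited by counting error.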
